A study of Mus musculus with 4 samples.

Results

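The cystatin and stefin genes encode protein inhibitors of cysteine proteases. The group was taken as 10 gene symbols, namely Cst3, Cst6, Cst7, Cstb, Csta, Stfa1, Stfa2, Stfa2l1, Stfa3 and BC100530, and all 10 had a row among the 23420 genes of the deposited table. They were read in 4 RNA-seq libraries of myeloid cells sorted for CD11b and CD200R1 from orthotopic cutaneous squamous cell carcinomas (cSCC) of FVB/N mice. The WT group is 2 libraries from wild-type tumours, which carry CD200. The EpiKO group is 2 libraries from CD200 negative tumours of genotype K14Cre;CD200fl/fl, with a Cre recombinase driven by the keratin 14 promoter, which is active in keratinocytes. The question was which genes of these myeloid cells follow the CD200 status of the carcinoma, and the title of the series names cathepsin K, one of the proteases that cystatins inhibit.

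Cystatins bind the active-site cleft of papain-like cysteine proteases, the cathepsins B, C, H, K, L, S and their relatives, and some of them also inhibit legumain through a separate surface. Secreted cystatins such as cystatin C (Cst3) act outside the cell or in the endocytic route, cystatin F (Cst7) is a leukocyte form that is targeted to lysosomes, and cystatin M/E (Cst6) is best known from the epidermis. Stefins have no signal peptide and act in the cytosol, with cystatin B (Cstb) in most cells and the stefin A genes, expanded in the mouse into a gene cluster, mainly in epidermis and in granulocytes.

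The 10 genes lie at 5 places in the mm10 genome by GENCODE M21. Cst3 occupies chr2:148871722-148875692 on the minus strand and Cst7 chr2:150570415-150578944 on the plus strand. Cstb lies at chr10:78425669-78427622 on the plus strand and Cst6 at chr19:5344705-5349574 on the minus strand. The other 6, the stefin A genes, lie on chromosome 16 within 335.4 kb, from 36119946 to 36455392. Csta was located under its present symbol Csta1. BC100530, at chr16:36359382-36367748 on the minus strand, shares exon sequence with Gm15845 on the other strand, and reads of the pair cannot be told apart where counting did not use the strand.

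The stefin A genes are close copies, which bears on how far reads can be assigned to one of them. BC100530 and Stfa1 were 98.0% identical over 294 aligned coding bases, and Stfa2 and Stfa2l1 were 96.5% identical over 312. By contrast, Cst3 shared 52.1% with Cst7 and 53.0% with Cst6. The first 90 coding bases of 5 stefin A genes are shown from the GENCODE M21 transcripts because they display this likeness. In Stfa1, capitals mark the 3 bases that differ from BC100530.
BC100530: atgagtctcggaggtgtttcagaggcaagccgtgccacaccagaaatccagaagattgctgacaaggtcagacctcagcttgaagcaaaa
Stfa1: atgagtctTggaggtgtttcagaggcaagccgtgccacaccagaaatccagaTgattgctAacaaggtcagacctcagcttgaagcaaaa
In Stfa2l1 and Stfa3, capitals mark the 6 and the 14 bases that differ from Stfa2.
Stfa2: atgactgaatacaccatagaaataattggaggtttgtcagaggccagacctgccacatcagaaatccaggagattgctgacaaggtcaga
Stfa2l1: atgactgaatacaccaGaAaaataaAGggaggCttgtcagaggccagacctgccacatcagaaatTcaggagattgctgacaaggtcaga
Stfa3: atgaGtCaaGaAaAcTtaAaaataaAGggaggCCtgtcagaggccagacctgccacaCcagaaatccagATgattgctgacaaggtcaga
Of the stretches of 50 bases in BC100530 transcripts, 63.8% occurred in no transcript of another gene, and 84.4% of those of 100 bases did. The share at 50 bases was 77.5% for Stfa1, 84.1% for Stfa2 and 75.4% for Stfa2l1, and 100% for Stfa3, Cst3, Cst6, Cst7 and Cstb. The read length is not given in the sources used here, so values of the stefin A genes other than Stfa3 and Csta are uncertain, whereas those of Cst3, Cst6, Cst7 and Cstb do not share sequence in this way.

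The libraries held between 15884132 and 21244158 reads assigned to genes. Macrophage genes were abundant in all 4, with Itgam, the gene of CD11b, between 26151 and 40692 (values are normalised read counts throughout). Cd200r1, the other gate gene, was read at 318 and 293 (WT) and 1101 and 612 (EpiKO). The targeted gene Cd200 was read at 92.7 and 59.7 (WT) and 17.2 and 15.1 (EpiKO), but the sorted cells are not those in which K14Cre acts, so this is a weak check of the labels. Replicates 1 and 2 of each group are numbered here by the order of the deposited columns, since the labels give no replicate numbers. WT replicate 1 stood apart in keratinocyte genes. The 17 markers on the keratinocyte list summed to 6172 there, and to 124, 80.7 and 71.8 in WT replicate 2, EpiKO replicate 1 and EpiKO replicate 2. Results that rest on WT replicate 1 are given with and without it below. In bulk RNA, fewer cells of a type and less RNA per cell cannot be told apart.

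In brief, Cst3, Cstb, Cst7 and BC100530 had both EpiKO values below both WT values, by 1.45-fold, 1.38-fold and 2.65-fold in the means of the first 3 and to nearly no reads in BC100530. None passed the threshold of an adjusted p under 0.05 by limma with Benjamini-Hochberg adjustment over 12463 tested genes. Cst6 followed no group, being high in WT replicate 1 alone. The other 5 stefin A genes had few reads or none. Among them Stfa3 also had both EpiKO values below both WT values, with 29 and 4 reads in WT and none in EpiKO.

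**Figure D1:**
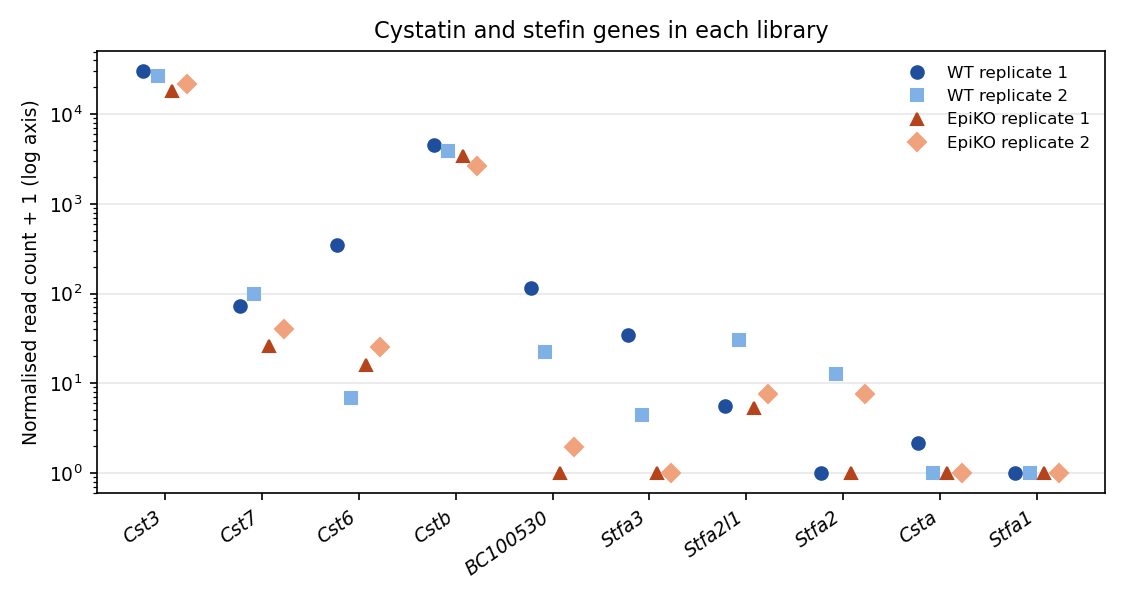
Normalised read count plus 1 on a log axis for each of the 10 genes, with 1 point per library. Both EpiKO points lie below both WT points for Cst3, Cst7, Cstb, BC100530 and Stfa3, the last with no read in EpiKO. Cst6 is high in WT replicate 1 alone and Stfa1 is at 0 in every library.

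Cst3, which encodes cystatin C, the secreted inhibitor of most cysteine cathepsins, had the highest values of the group, also per length (given further on). WT replicates 1 and 2 gave 30455 and 27011, EpiKO replicates 1 and 2 gave 18211 and 21549. The groups did not overlap. The WT mean was 28733 ± 2435 (SD, n = 2) and the EpiKO mean 19880 ± 2361 (SD, n = 2). On the log2(value + 1) scale the difference was -0.53 (SE 0.153), with an adjusted p = 0.194 by limma. In DESeq2, run on reads recovered from the values, the adjusted p was 0.0331, and over all 13 alternatives it ran from 0.0331 to 0.585. The gene ranked 66 of 12463 by mean value. Cst3 is a transcript of macrophages and dendritic cells. The 10 macrophage markers read from the table summed to 562836 and 458918 (WT) and 623047 and 622601 (EpiKO). Lyz2 carried the higher EpiKO sums, since without it the sums were 355827 and 301819 (WT) and 297284 and 387442 (EpiKO), which overlap. Of the 10 log2 differences 5 were positive and 5 negative, and none was called by limma. The part of macrophage transcripts in the Cst3 difference was not tested.

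Cst7, which encodes cystatin F, a lysosomal inhibitor of leukocytes that acts on cathepsin C among others, had the largest difference among the 3 genes with at least 10 reads in every library. The WT libraries gave 71.9 and 96.7, from 62 and 115 reads, and the EpiKO libraries 24.8 and 38.7, from 23 and 41 reads. The lower WT library stood above the higher EpiKO library. The means were 84.3 ± 17.5 (SD, n = 2) and 31.8 ± 9.89 (SD, n = 2), and the log2 difference was -1.40 (SE 0.358, adjusted p = 0.160 by limma). With any 1 library left out the log2 difference lay between -1.71 and -1.09, where the non-overlap of the groups fixed its sign. Cst7 is also transcribed in cytotoxic lymphocytes. The 10 T and NK cell markers summed to 158 and 60.5 (WT) and 86.1 and 120 (EpiKO). Most of each sum came from Klrb1c, the NK1.1 gene, at 143, 47.1, 77.5 and 104 in the same order. The other 9 reached at most 6.72 in any library, and Cd8a had no read. The part of these cells in the Cst7 difference was not tested.

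Cstb, which encodes cystatin B (stefin B), the cytosolic inhibitor of cathepsins that leak from lysosomes, had WT values of 4484 and 3920 and EpiKO values of 3451 and 2653. The groups did not overlap, but EpiKO replicate 1 lay nearer to WT replicate 2 than to EpiKO replicate 2. The means were 4202 ± 399 (SD, n = 2) and 3052 ± 565 (SD, n = 2). The log2 difference was -0.47 (SE 0.167, adjusted p = 0.274 by limma), and it was -0.28 (adjusted p = 0.556 by limma) without EpiKO replicate 2.

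Cst6, which encodes cystatin M/E, an inhibitor of legumain and of cathepsins of the cornifying epidermis, was at 350 in WT replicate 1 and at 5.88 in WT replicate 2. It was at 15.1 and 24.6 in EpiKO, so the EpiKO values lay between those of the 2 WT libraries. The log2 difference of -1.28 (SE 1.85, adjusted p = 0.815 by limma) turned to 1.56 (adjusted p = 0.543 by limma) without WT replicate 1. In the same library Krt14 was at 1907, against 28.6, 8.61 and 18.9 in the others, and all 17 keratinocyte markers had reads, against 7, 5 and 7 markers at 0 in the others. The part of these transcripts in the Cst6 value was not tested.

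**Figure D2:**
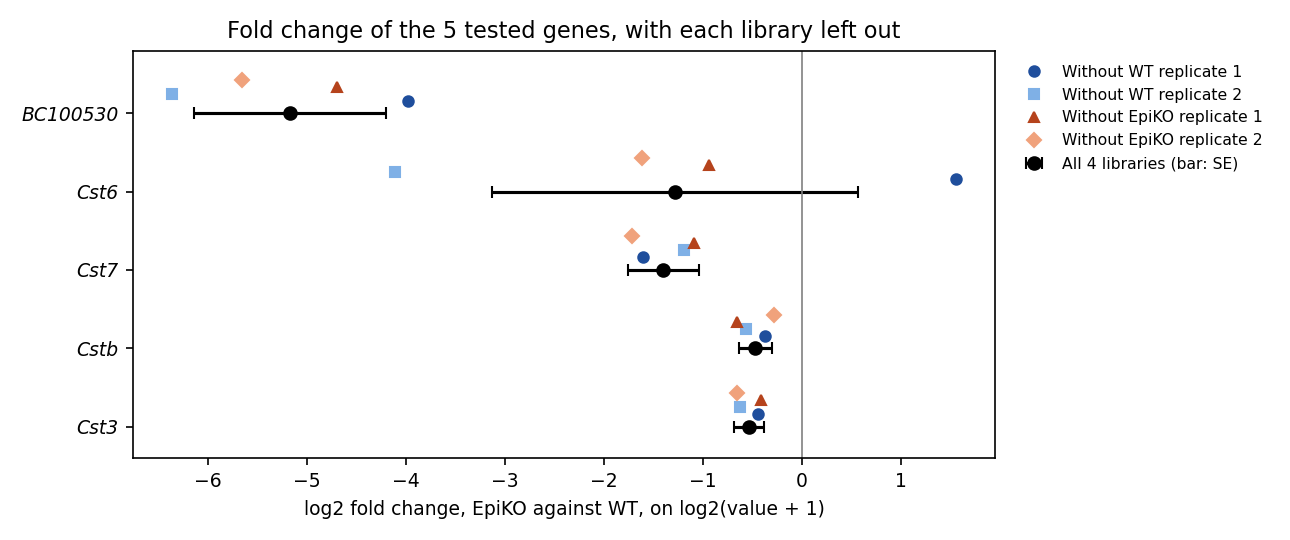
log2 difference of EpiKO against WT for the 5 tested genes, with the standard error for all 4 libraries (black) and the value with each library left out (coloured). Cst3, Cstb, Cst7 and BC100530 stay below 0, a sign that the non-overlap of their groups fixed. Cst6 runs from -4.11 without WT replicate 2 to 1.56 without WT replicate 1.

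BC100530, a stefin A gene named Cstdc5 in RefSeq, had WT values of 114 and 21.0 and EpiKO values of 0 and 0.945. These values stand for 98 and 25 reads in WT and 0 and 1 in EpiKO. Pooled over the libraries of a group, the WT over EpiKO ratio was 119 (exact binomial 95% interval 21.0 to 4741, counting error only). Without WT replicate 1, where keratinocyte genes were high, 25 reads stood against 1 and the ratio was 41.8 (95% interval 6.84 to 1714, counting error only). The fitted log2 difference was -5.17 (SE 0.973, adjusted p = 0.0907 by limma) and depends on the pseudocount, at -5.87 with 0.5 and -3.35 with 5. It was -3.98 without WT replicate 1 and -6.36 without WT replicate 2. DESeq2 gave an adjusted p of 0.00128, within a range of 0.00128 to 0.343 over 12 alternatives. The gene passed the filter on low values through the WT libraries only.

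Stfa3, another stefin A gene, had 29 and 4 reads in WT and none in either EpiKO library. Against a floor of 3 reads over both EpiKO libraries it was 10.6-fold higher in WT. The exact binomial 95% interval of the ratio began at 8.19 and had no upper end (counting error only). Most of this difference rests on WT replicate 1, since 4 reads against 0 remained without it and the interval then began at 1.10. BC100530 and Stfa3 were thus both highest in WT replicate 1, as were the keratinocyte markers. The 8 dendritic cell markers summed to 1581 and 750 (WT) and 133 and 185 (EpiKO). Most of the WT sums came from the Langerhans cell gene Cd207, at 1201 and 590 (WT) and 23.7 and 23.6 (EpiKO). The log2 difference was negative for 3 of the 5 tested markers. It was positive for Zbtb46 and Cd209a, at 0.024 and 0.43, and the groups of both overlapped. Xcr1 and Clec9a had 2 reads or fewer in each library. Epcam, which did not pass the filter on low values, was at 156 and 7.57 (WT) and 6.46 and 7.56 (EpiKO). Unlike Cd207, Epcam was thus high in WT replicate 1 alone. The part of keratinocyte, dendritic cell or neutrophil transcripts (neutrophil markers follow) in the values of BC100530 and Stfa3 was not tested.

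Stfa2l1 and Stfa2 behaved otherwise. Stfa2l1 had 4 and 35 reads in WT and 4 and 7 in EpiKO, and Stfa2 had 0 and 14 in WT and 0 and 7 in EpiKO. Both were highest in WT replicate 2, and the groups overlapped. The pooled WT over EpiKO ratio of Stfa2l1 was 3.43 (95% interval 1.72 to 7.43, counting error only) and turned to 0.837 without WT replicate 2. For Stfa2 it was 1.94 (95% interval 0.731 to 5.67), with 3.34 without WT replicate 1, 1.03 without EpiKO replicate 1 and 0 (95% interval 0 to 1.60) without WT replicate 2, which held all its WT reads. The neutrophil genes S100a8 and S100a9, which encode the calprotectin subunits, were also highest in WT replicate 2, at 459 and 737. S100a8 was at 81.1, 184 and 84.1 in WT replicate 1 and EpiKO replicates 1 and 2, and S100a9 at 64.9, 38.8 and 117. Retnlg, Cxcr2, Ltf, Camp, Ngp and Lcn2 were also highest in WT replicate 2, at 166, 113, 30.3, 10.1, 85.7 and 96.7. For Camp, EpiKO replicate 2 was close, at 9.45. Retnlg and Lcn2 were not high in WT replicate 2 alone. Retnlg was at 55.6 and 166 (WT) and 7.54 and 20.8 (EpiKO), and Lcn2 at 73.0 and 96.7 (WT) and 26.9 and 24.6 (EpiKO). The remaining neutrophil markers were ordered otherwise. Mmp8 was at 167 and 222 (WT) and 3757 and 847 (EpiKO). Trem1 was highest in EpiKO replicate 1, Csf3r in EpiKO replicate 2 and Il1r2 in WT replicate 1. All 12 neutrophil markers read are named here, and they were sorted by library after their values were seen. Of the 11 tested, both EpiKO values lay below both WT values for 2, Retnlg and Lcn2 (23.8% of tested genes). They lay above for 1, Mmp8 (23.3%), and the groups of the other 8 overlapped. The 12 neutrophil markers read from the table summed to 8264 and 7432 in WT and 22304 and 7768 in EpiKO, where Trem1 took the largest share in every library but is not restricted to neutrophils. The part of neutrophil transcripts in these stefin values was not tested.

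Csta had 1 read, in WT replicate 1, and Stfa1 had none in any library. A count of 0 allows up to 3 reads, a value of 2.52 to 3.48 depending on the library. Summed by reads, the 6 stefin A genes had 132 and 78 in WT and 4 and 15 in EpiKO, a WT over EpiKO ratio of 10.7 (95% interval 6.68 to 18.1, counting error only). The ratio was 6.86 without WT replicate 1 and 23.8 without EpiKO replicate 2. BC100530 gave 74.2% of these reads in WT replicate 1 and 32.1% in WT replicate 2, so the makeup of the stefin A reads differed between the 2 WT libraries. The sum removes the question of which of the 6 a counted read came from, but reads that matched several genes may not have been counted. BC100530 and Stfa1 also share stretches of 50 bases with BC117090 and Gm15845, and Stfa2 and Stfa2l1 with Gm49652. Stfa2 shares such stretches with Gm4758 too, and Csta with Gm5689. None of these partner genes is in the sum. Of the cluster genes outside the group, BC117090 had 4 and 5 reads in WT and 0 in EpiKO, and Gm5483, Gm5416 and 2010005H15Rik had at most 7 reads in any library.

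**Figure D3:**
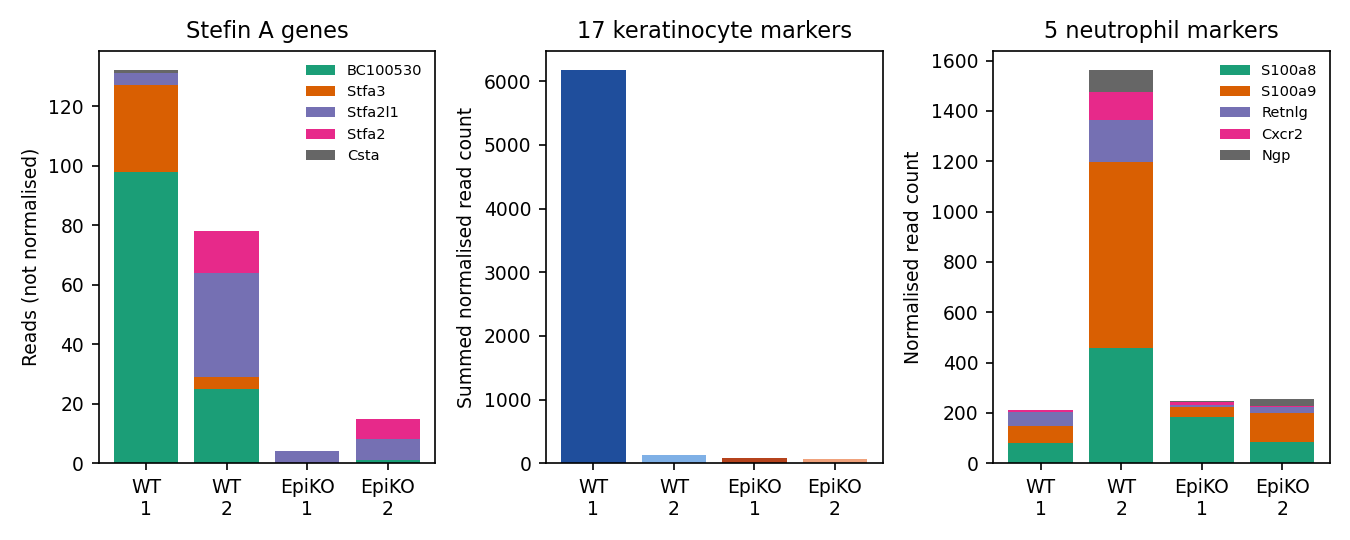
Reads of the stefin A genes in each library (left), the summed normalised read count of 17 keratinocyte markers (middle) and the normalised read counts of 5 neutrophil markers chosen after their values were seen (right). BC100530 and Stfa3 reads are most numerous in WT replicate 1, where keratinocyte markers reach 6172, and Stfa2l1 and Stfa2 reads in WT replicate 2, where S100a9 reaches 737. The neutrophil markers that are highest in another library, Mmp8, Trem1, Csf3r and Il1r2, are not shown.

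Of the 10 genes, 5 reached a value of 10 in 2 or more libraries, the filter on low values, and the other 5 were not tested. None of the 5 was called by limma, where 0.947% of all tested genes were called, 0.53% lower and 0.417% higher in EpiKO. At an unadjusted p under 0.05 in limma, 4 of the 5 were lower, against 7.57% of tested genes. DESeq2 called 2 lower, Cst3 and BC100530, where DESeq2 called 6.85% of tested genes in either direction and 3.12% lower. edgeR called none of the 5, where 0.963% of genes were called. The groups did not overlap, with EpiKO lower, for 4 of the 5 and for 23.8% of tested genes. All 5 log2 differences were negative, with a median of -1.28, and the median of all tested genes was -0.0021. The counts cannot be read as support for a shift of the group, since BC100530 entered through its WT values and the genes were chosen with earlier results of these data known.

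**Figure D4:**
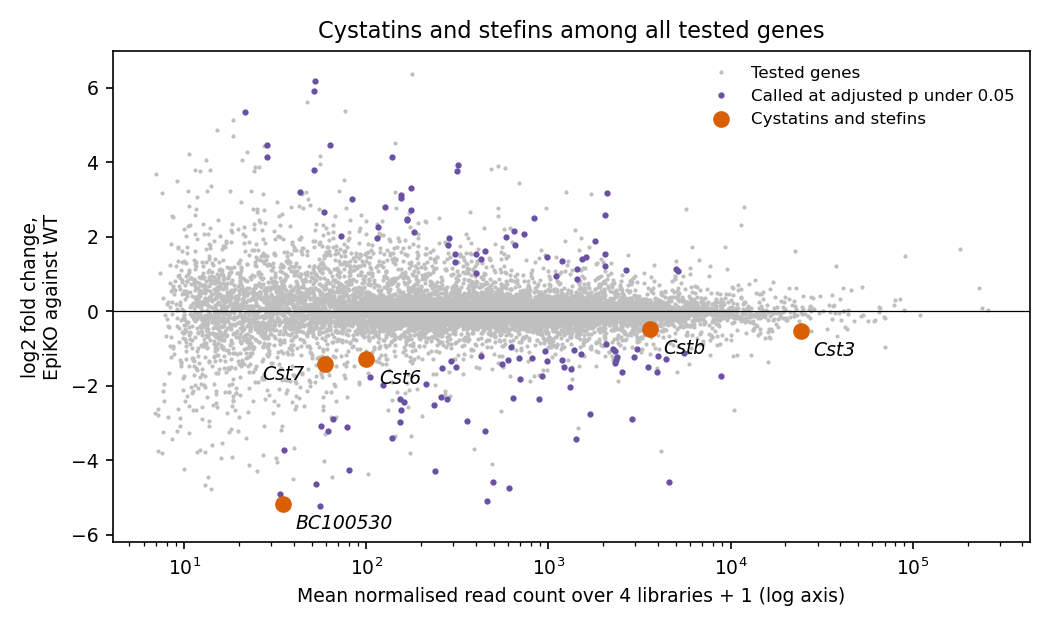
log2 difference of EpiKO against WT over mean normalised read count plus 1 (log axis) for 12463 tested genes, with 118 called genes in purple and the 5 tested cystatins and stefins in orange. All 5 lie below 0, with Cst3 at -0.53 among the most abundant genes and BC100530 at -5.17 among the least abundant.

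Levels of different genes were compared per kilobase of exon. Cst3 stood at 22696 ± 1923 (SD, n = 2) in WT and 15703 ± 1865 in EpiKO, rank 24 of 12359 genes with a known length. Cstb followed at 6969 ± 662 and 5062 ± 936. Within each library the Cst3 level was between 2.51 and 3.87 times that of Cstb. The remaining genes were far below, with Cst7 at 85.5 ± 17.8 in WT and 32.2 ± 10.03 in EpiKO, BC100530 at 85.2 ± 82.9 in WT, and Cst6 at 43.5 ± 59.5 in WT. In order of the WT mean, Stfa3 at 44.9 ± 51.9 lay between BC100530 and Cst6, and Stfa2l1 at 40.6 ± 41.8 and Stfa2 at 12.5 ± 17.7 followed Cst6. From Cst7 down to Stfa2, the WT ranges of neighbours in this order overlapped. The levels of Cst3, Cstb and Cst7 were separated in every library.

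The targets of these inhibitors were read on the same scale. Per kilobase of exon, cathepsin S (Ctss) at 48309 ± 7696 and legumain (Lgmn) at 31911 ± 959 in WT (SD, n = 2) lay above Cst3. Cathepsin B (Ctsb) at 14554 ± 651 lay below it in WT. In EpiKO replicate 2 the Cst3 level was 0.956 times that of Ctsb, and in the other libraries between 1.14 and 1.60 times. Per kilobase of the longest transcript, a length chosen for this ratio after seeing the data, it was 1.10 times in EpiKO replicate 2 and above Ctsb in all 4 libraries, up to 1.85 times. Of 11 targets on the list 10 were tested and 1, Ctsk, was called lower by limma, where 0.53% of all tested genes were called lower. The median log2 difference over the 10 was -0.090. Both EpiKO values lay below both WT values for 3, Ctsk, Ctsf and Ctso (23.8% of tested genes), and above for 1, Ctsl (23.3%). The other 6 overlapped. Ctsf had a log2 difference of -1.27 (SE 0.452, adjusted p = 0.279 by limma), Ctso one of -0.20 and Ctsl one of 0.34. Cathepsin C (Ctsc), the protease that Cst7 is known to inhibit, had a log2 difference of -0.24 (SE 0.184, adjusted p = 0.617 by limma), and Lgmn one of -0.18 (SE 0.246, adjusted p = 0.806 by limma). Ctsk had WT values of 10677 and 7022 and EpiKO values of 434 and 299, and the per-kilobase ratio of Cst3 to Ctsk was 3.41 and 4.59 in WT and 50.1 and 86.2 in EpiKO.

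**Figure D5:**
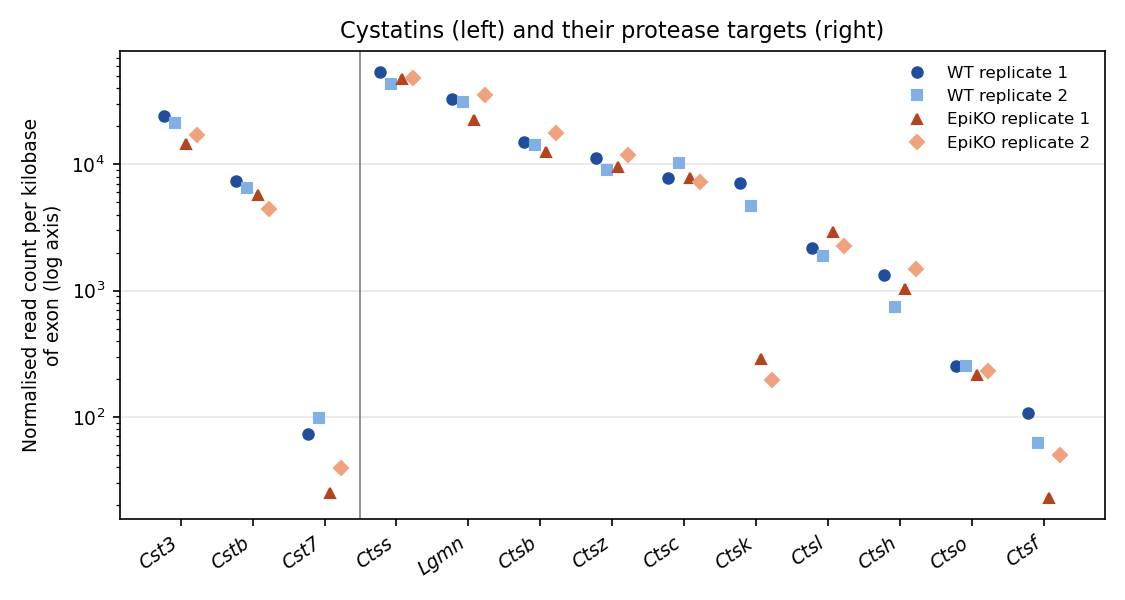
Normalised read count per kilobase of exon on a log axis for Cst3, Cstb and Cst7 (left of the line) and 10 tested protease targets (right), with 1 point per library. Ctsk lies at 7062 and 4644 (WT) against 287 and 198 (EpiKO), while Cst3 stays between 14384 and 24056.

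The promoter region of Cst7 is shown because this gene had both EpiKO values below both WT values and its sequence is not shared. The stretch holds the 250 bases before the transcription start, which RefSeq and GENCODE place at the same base, at chr2:150570165-150570414 on the plus strand (RefSeq, GRCm38.p6). Capitals mark a PU.1 type ETS site (AGGAAGTG), PU.1 being a factor that myeloid cells depend on.
Cst7: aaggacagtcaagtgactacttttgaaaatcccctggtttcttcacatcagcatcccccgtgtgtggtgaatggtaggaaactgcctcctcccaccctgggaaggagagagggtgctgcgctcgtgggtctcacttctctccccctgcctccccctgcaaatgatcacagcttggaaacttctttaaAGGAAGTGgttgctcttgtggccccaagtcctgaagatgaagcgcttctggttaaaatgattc
The RefSeq start of Cst3 lies 180 bases inside the gene as GENCODE M21 gives it, and 125 of the 250 bases before that start are GENCODE untranslated exon, so the stretch is not shown as a promoter.
Counted on both strands from 250 bases before to 50 after the RefSeq start, AGGAAGTG was found in 4.07% of 32851 RefSeq windows and, of the 8 genes with a window (all but Cst6 and Cstb), in Cst7 alone. GGGCGG was found in 35.7% of windows and, of the 8 genes, in Cst3 alone. A C/EBP type site (TTGCNNAA, 10.8% of windows) lay in those of Cst7, Stfa1 and BC100530, and an AP-1 type site (TGANTCA, 7.81%) in those of Cst7 and Stfa3, where the C/EBP and AP-1 matches of Cst7 overlap. CACGTG, the E-box of the MITF and TFE factors, was found in none of the 8 and in 7.15% of all, and TATAAA in none and in 13.6%. These are matches of letters, not binding sites.

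The windows around the RefSeq starts of 5 stefin A genes, BC100530, Stfa1, Stfa2, Stfa2l1 and Stfa3, held a stretch in common, and that of Csta did not. From 100 bases before the start to the first transcribed base, the longest run shared by the 5 had 13 bases, ACCTTTAAAACCC. It was sought after the sequences were seen. Over the whole windows, transcribed bases included, the longest shared run was another one, of 17 bases. The run of 13 bases occurred in 9 of 32851 windows (0.0274%), of which 5 belong to these genes, 3 to other stefin genes of the cluster and 1 to Gm7260, which lies between cluster genes on chromosome 16. The RefSeq starts of BC100530, Stfa1 and Stfa2 lie 178, 197 and 94 bases inside the genes as GENCODE M21 gives them, and there all 13 bases are GENCODE untranslated exon. The stretches of Stfa3 and Stfa2l1, whose starts are the same in both annotations, are shown with the run in capitals (RefSeq, GRCm38.p6).
Stfa3, chr16:36455392-36455492 on the minus strand: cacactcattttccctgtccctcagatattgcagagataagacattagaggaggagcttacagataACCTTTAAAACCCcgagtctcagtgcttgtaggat
Stfa2l1, chr16:36156711-36156811 on the plus strand: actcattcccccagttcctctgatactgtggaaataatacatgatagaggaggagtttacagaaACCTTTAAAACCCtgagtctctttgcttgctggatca
Of the 5 genes with the run, BC100530 and Stfa3 had most of their reads in WT replicate 1, Stfa2l1 and Stfa2 theirs in WT replicate 2, and Stfa1 had none.

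Genes with the most similar profile were sought by the distance between log2(value + 1) profiles over the 4 libraries, each centred on its own mean, among 10741 genes with a mean of at least 50. Nearest to Cst6 were Pkp1, which encodes the desmosome protein plakophilin, at 298 in WT replicate 1 and 2.52, 10.8 and 23.6 elsewhere (distance 0.685), then Anxa8 and Perp, at distances of 1.12 and 1.32. Perp is also on the keratinocyte list. Nearest to BC100530 was Cd207, the langerin gene of Langerhans cells, at 1201 and 590 in WT and 23.7 and 23.6 in EpiKO (distance 1.18), then Itm2a and Fndc1 at 1.51 and 1.55. Nearest to Cst7 were Sema4d, a semaphorin, Enpp4 and Col27a1, a fibrillar collagen, at distances between 0.191 and 0.201. Cst3 lay closest to Gas2l3, Rapgef5 and Dyrk2, and Cstb to March7, Ftsjd1 and Mex3c, all at distances under 0.07. With 4 libraries many genes share such a profile, so these distances describe the values and nothing more.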

How the data were processed

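The deposited table gives a signal per gene and library, made by the authors by dividing read counts by 1 size factor per library, which was read from the values. Divided by what 1 read is worth in its library (0.841 to 1.16), 100% of values came out whole within 1e-06, which gave back the reads. Build mm10, STAR 2.5.2b, DESeq2, bcl2fastq 2.17 and featureCounts 1.5.0-p3 are named in the submitters' processing notes. Which annotation was counted, whether by strand, and how multi-mapping reads were handled is not given in the sources used here.

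Values were tested as log2(value + 1), which understates the change of low genes, in genes that reached 10 in 2 or more libraries. The EpiKO minus WT difference was fitted with limma 3.58.1 (R 4.3.3) with trend and robust moderation, two-sided, Benjamini-Hochberg adjusted over all tested genes. The procedure was tested on simulated data, with changes planted only in genes with more reads than Cst7 or BC100530. The same spread was set for all genes. It therefore does not cover genes with few reads or with replicates as far apart as those of Cst6. edgeR 4.0.16 and DESeq2 1.42.0 on the recovered reads were alternatives, beside other pseudocounts, filters and scalings, a fit with no variance trend, a threshold of 0.1 and leaving out each library. An exact permutation test of 2 against 2 libraries cannot go below p = 0.333. The labels do not say whether replicates are separate mice or pools, so p-values measure only the spread between these libraries, which may be technical.

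Low counts have exact binomial 95% intervals, which cover counting error only. Lengths were taken from GENCODE M21 (98.3% of symbols matched). All 10 genes are named, for other lists the members with the smallest p or highest mean or defining genes chosen after their values were seen, and for likeness the 3 nearest genes. The genes and lists were chosen with earlier results of these data known.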

Additional observations from a re-analysis of the deposited data

How the results depend on the processing

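No paired analysis was possible because the labels carry no replicate number or other link between libraries. The number of called genes was 118 (52 higher, 66 lower in EpiKO). DESeq2 called 854 (465 higher, 389 lower), a threshold of 0.1 gave 428 (226 and 202), and limma with no variance trend gave 31 (13 and 18). With 1 library left out, between 0 and 4 genes were called, 0 to 2 higher and 0 to 4 lower. Of the cystatins and stefins none was called, DESeq2 called 2, and a threshold of 0.1 gave 1, BC100530; with 1 library left out the number was 0 in every case. The log2 differences of Cst3, Cst7, Cstb and BC100530 kept their negative sign under every alternative run, from -0.66 to -0.41, -1.71 to -1.09, -0.66 to -0.28 and -7.06 to -3.35, where the non-overlap of the groups fixed the sign with a library left out. That of Cst6 ran from -4.11 to 1.56 and turned positive, 1.56, without WT replicate 1, and the WT over EpiKO read ratio of Stfa2l1 ran from 0.837 to 5.31 with 1 library left out, turning to 0.837 without WT replicate 2. BC100530 and Cst6 did not pass a filter at 50 and have no value there. Per kilobase of the longest transcript in place of all exons, Cst3 stood at 33410 in WT. No read ratio could be given for Stfa3 under any of these, or for BC100530 or Stfa2 without EpiKO replicate 2, where EpiKO had no read. That of Stfa2 ran from 0 to 3.34 with 1 library left out, turning to 0 without WT replicate 2. The per-kilobase ratio of Cst3 to Ctsb in EpiKO replicate 2 turned from 0.956 to 1.10 with the longest transcripts. Which size of difference could be found at 23 to 115 reads of Cst7, or at most 98 of BC100530, in a library was not measured.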

Other observations

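Other inhibitors of cysteine proteases were also read. Of 11 genes on that list 8 were tested and none was called by limma, with 6 negative log2 differences and a median of -0.19. Both EpiKO values lay below both WT values for 3, Serpina3g, Ctla2b and Serpinb6a (23.8% of tested genes), and the other 5 overlapped. Serpina3g, a mouse serpin that inhibits cathepsins, gave 172 and 137 in the WT libraries, 66.7 and 89.8 in the EpiKO libraries (log2 difference -0.98, SE 0.258, adjusted p = 0.169 by limma). Ctla2b, which resembles a cathepsin propeptide, gave 1073 and 1230 in the WT libraries, 993 and 795 in the EpiKO libraries (log2 difference -0.37, SE 0.153). Its paralog Ctla2a gave 588 and 332 (WT), 402 and 411 (EpiKO), so its groups overlapped. The serpin gene Serpinb6a gave 3744 and 2971 in the WT libraries, 2816 and 2361 in the EpiKO libraries (log2 difference -0.37, SE 0.165). The calpain inhibitor gene Cast and the serpin gene Serpinb9 had log2 differences of -0.082 and 0.15. Serpinb3a and Serpinb13, serpins of squamous epithelium, had no read in any library, including WT replicate 1.

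Of the other cystatin superfamily, 12 genes of the list had a row and 4 of these had any read. Fetub, a liver-derived fetuin, had the highest value among them, 5.80 in WT replicate 1. None reached the filter on low values.

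Cystatin F is known to control cathepsin C, which activates granule serine proteases. Of 10 such proteases 4 were tested and none was called by limma, with a median log2 difference of 0.16. Their values summed to 116 and 52.1 (WT) and 79.7 and 61.4 (EpiKO). The 8 mast cell and basophil markers summed to 289 and 34.5 (WT) and 114 and 20.8 (EpiKO), the 3 eosinophil markers to 80.0 and 60.5 (WT) and 21.5 and 55.8 (EpiKO), and the 5 fibroblast markers to 13237 and 9303 (WT) and 9322 and 16116 (EpiKO).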
